A study of Mus musculus with 6 samples.

Results

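Glipr1, Hal, Anpep, Procr, Cd180, Htr2b, Ugt1a7c, Neurl3 and Tmem37 are 9 genes of the mouse retina that were close to silent in control animals and clearly detected after light exposure. They were taken by symbol from a table of 23420 genes and were chosen by their measured light-exposed and control values, since the former lay far above the latter and most of the genes stood at or near the limit of detection in control. The rule names genes and sets no threshold. Since it used the light-exposed and control libraries, the distance between those groups is given here as a description. No p-value is printed for it in the 9 genes. The level with minocycline was also known when the genes were chosen, so the comparisons with minocycline are no independent evidence of a pattern.

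RNA from whole retina was sequenced in 6 libraries, 2 for each of 3 groups. Per the labels, control retinas came from CD1 mice without treatment, light-exposed retinas from CD1 mice analysed 4 days after white light of 10000 lux for 1 h, and the last group from CD1 mice with the same light that were injected intraperitoneally with minocycline at 45 mg/kg every day for 4 days. The study's methods name the albino strain BALB/cJ, both sexes, an adult age and another light intensity and injection schedule, and neither source gives an age for single libraries or says how many animals stand behind a library. Light of this strength kills photoreceptors, and minocycline is a tetracycline antibiotic used to calm microglia, the resident phagocytes of the retina. There was no group that received minocycline without light.

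The genes do not belong to a single family. Glipr1, Anpep, Procr, Cd180, Htr2b and Tmem37 encode proteins of the cell membrane, while Hal, Ugt1a7c and Neurl3 encode enzymes. Anpep and Cd180 are known from myeloid cells, Htr2b is a serotonin receptor described on microglia, and Procr is best known from endothelium. In the retina, resting microglia sit in the inner layers, and after photoreceptor damage they become amoeboid, move outward and phagocytose debris, while blood-borne macrophages can enter the tissue.

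Total counts lay between 15205930 in control 1 and 22856922 in minocycline A, a name used because both minocycline columns carry the same header. Pairs of values below are in the order replicate 1 and 2, or A and B. A gene with no count could still reach 3 counts by chance, which corresponds to 0.131 CPM in minocycline A and 0.213 CPM in control 1. CPM is the count divided by the TMM-scaled library size and multiplied by 1000000. This limit and the intervals of count ratios below cover counting error only. They leave out variation between libraries of a group, and PCR copies are not independent molecules. Control 1 differed from the other libraries in genes of the sex chromosomes, with 77778 counts of Xist against 25 to 188 elsewhere, and 11 counts of Y-linked genes against 6532 to 12858, so that it holds RNA of female retina and the others RNA of male retina. Without control 1, the fitted log2 fold change after light was still at least 2 for all 9 genes. Summed markers of rods fell from 80812 and 60871 CPM in control to 44551 and 31249 CPM after light, and were 65751 and 73344 CPM in minocycline A and B, so the tissue was retina in every library.

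The promoters of these genes are shown first because their rise together makes the sequence near their start sites of interest. RefSeq (GRCm38.p6) gave a stretch of 250 bases before to 50 bases after the start site for 8 of the 9 genes, Glipr1 being without an entry. The letters TGANTCA, the core bound by AP-1 factors, were found on either strand in 4 of these 8 stretches, those of Hal, Htr2b, Procr and Tmem37, and in 7.81% of 32851 promoters of the same length. The core began 163 bases before the start site in Htr2b, 154 in Procr, 239 in Hal and 103 in Tmem37. In Tmem37 it lies within an annotated exon, and its surroundings are not printed. The upstream parts of the other 3 promoters follow, 5′ to 3′ on the strand of the gene, with the AP-1 core in capitals. They lie at chr1:86112037-86112230 on the minus strand for Htr2b, at chr2:155750967-155751116 on the plus strand for Procr and at chr10:93488518-93488635 on the plus strand for Hal.
Htr2b: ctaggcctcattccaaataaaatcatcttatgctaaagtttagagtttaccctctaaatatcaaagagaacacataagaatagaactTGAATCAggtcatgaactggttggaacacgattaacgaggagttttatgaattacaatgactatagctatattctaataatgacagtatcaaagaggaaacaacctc
Procr: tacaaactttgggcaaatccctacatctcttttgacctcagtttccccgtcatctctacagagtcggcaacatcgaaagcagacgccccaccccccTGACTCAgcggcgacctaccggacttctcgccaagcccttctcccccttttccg
Hal: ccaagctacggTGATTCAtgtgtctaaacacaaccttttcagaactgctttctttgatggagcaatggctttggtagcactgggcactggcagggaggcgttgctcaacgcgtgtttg

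Other motifs were searched in the same 8 promoters, on both strands. GAGGAA, the core of PU.1, the lineage factor of macrophages and microglia, stood in 3 of them (Htr2b, Ugt1a7c and Tmem37) and in 28.3% of all promoters. TTGCNNAA, a core of C/EBP factors, stood in Procr and Hal, 2 of 8, beside 10.8% of all promoters. GGGANTTTC, a core of NF-kB, stood in Neurl3 alone, 109 bases before the start site and within an annotated exon, beside 1.11% of all promoters. TATAAA stood in Neurl3 and Hal, beside 13.6%. GAAANNGAA, a core of interferon response elements, and TTCNNNGAA, a core bound by STAT factors, stood in 0 of the 8, beside 8.56% and 8.3% of all promoters. None of the matches in a promoter overlapped another, and a match describes letters and not a bound factor.

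After light, each of the 9 genes lay higher in both light-exposed libraries than in both controls. Their summed level was 1.21 and 1.83 CPM in controls 1 and 2, 23 and 78.4 CPM in light-exposed replicates 1 and 2, and 3.0 and 3.13 CPM in minocycline A and B. More than 3 counts were reached by 2 and 3 of the genes in the controls, by 9 in either light-exposed library, and by 6 and 4 with minocycline. Light-exposed replicate 2 was the higher of its pair for every gene. In whole retina, fewer cells of a type and less RNA per cell cannot be told apart. The rule used these values, and beside them 30.6% of all 14349 tested genes had light-exposed libraries that lay above the controls without overlap.

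**Figure D1:**
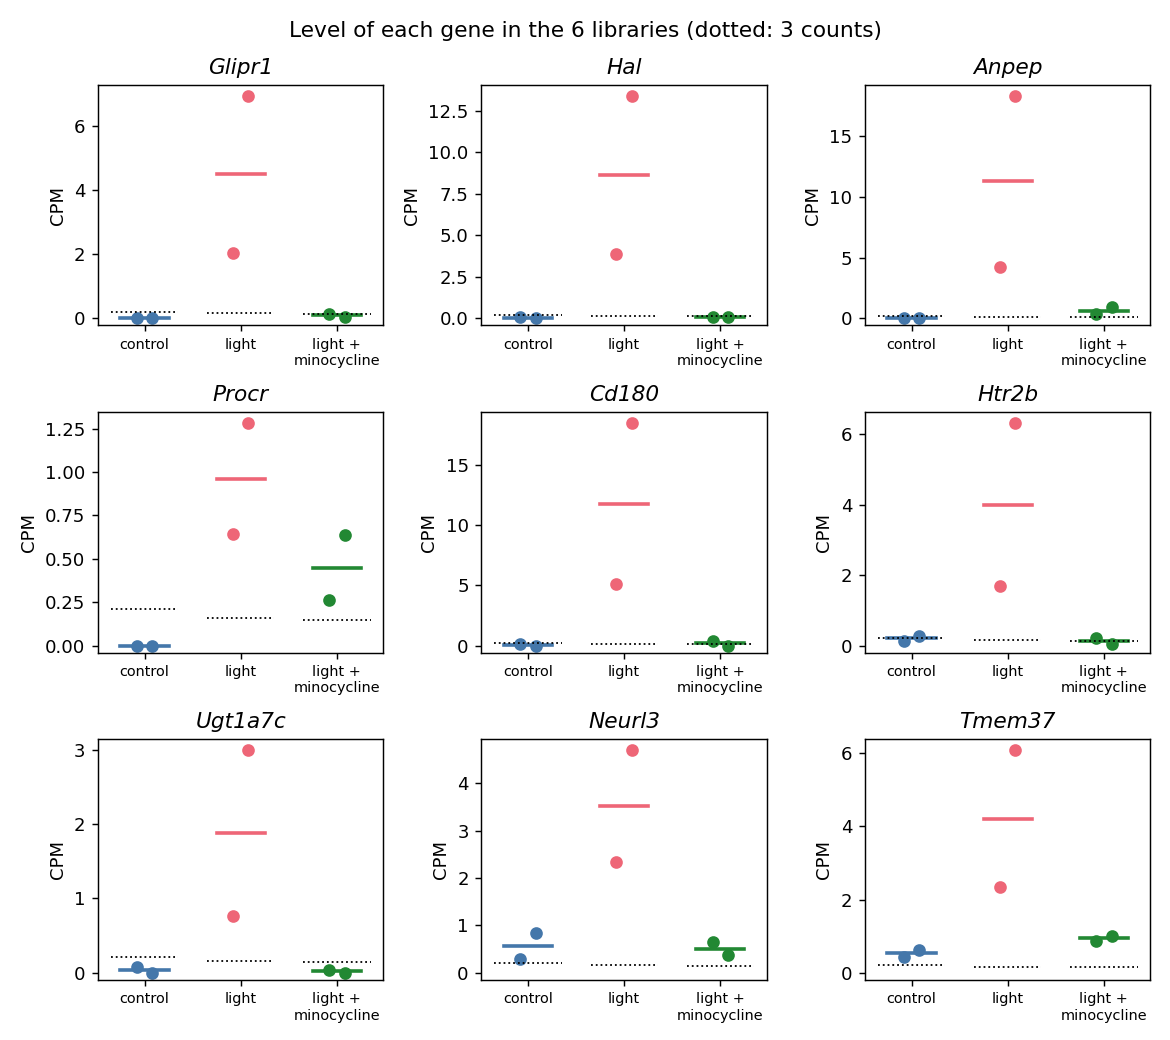
Level of each of the 9 genes in CPM (vertical axis, linear, a separate scale for each gene) in control, light-exposed and light-exposed plus minocycline retinas. Points are libraries, bars the mean of 2, and dotted lines the level of 3 counts (averaged over the libraries of a group); the light-exposed points lie above all others in every panel, and Procr is the gene whose minocycline points come nearest to them.

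Among the membrane proteins of myeloid cells, Cd180 showed the largest summed count after light. Cd180, also called RP105, is a leucine-rich repeat receptor related to Toll-like receptors, which pairs with MD-1 (Ly86) and modulates the response to lipopolysaccharide. The Cd180 gene lies at chr13:102693558-102739629 on the plus strand and held 2 and 0 counts in the controls, 87 and 388 after light, and 9 and 0 with minocycline. In CPM, this was 0.142 and 0 in control, 5.08 and 18.4 after light, and 0.392 and 0 with minocycline. Both minocycline libraries were far below both light-exposed ones and overlapped the controls. The summed count rate of Cd180 was 176-fold higher after light than in control (95% exact counting interval 48.4 to 1456) and 57.8-fold lower with minocycline than with light alone (30.2 to 127).

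Anpep encodes aminopeptidase N (CD13), a zinc peptidase that trims peptides at the outer face of myeloid and epithelial cells. Located at chr7:79821803-79861059 on the minus strand, it had 1 and 1 counts in control, 73 and 385 after light, and 8 and 17 with minocycline. These counts equal 0.0711 and 0.0704 CPM, 4.26 and 18.3 CPM, and 0.348 and 0.901 CPM. The groups did not overlap, and the minocycline libraries stood between the other groups. The count rate of Anpep was 170-fold higher after light than in control (counting interval 46.7 to 1404), 20.1-fold lower with minocycline than with light alone (13.4 to 31.4), and 8.44-fold higher with minocycline than in control (2.11 to 73.5).

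Htr2b encodes the serotonin receptor 2B, a receptor coupled to Gq. It lies at chr1:86099026-86111970 on the minus strand and held 2 and 4 counts in the controls, 29 and 133 after light, and 5 and 1 with minocycline. In CPM, this was 0.142 and 0.282 in control, 1.69 and 6.31 after light, and 0.218 and 0.0530 with minocycline. Minocycline and control libraries overlapped, and both lay below light. The count rate of Htr2b rose 20.0-fold from control to light (counting interval 8.99 to 55.3) and was 29.6-fold lower with minocycline than with light alone (13.3 to 81.8), while the ratio of minocycline to control was 0.675 (0.181 to 2.53).

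Glipr1 belongs to the CAP proteins, a family of secreted and membrane proteins that share a cysteine-rich domain. The gene lies at chr10:111985448-112002631 on the minus strand and had no count in either control, 35 and 146 counts after light, and 3 and 1 with minocycline. Its level was 2.04 and 6.93 CPM after light and 0.131 and 0.0530 CPM with minocycline. The light-exposed mean of Glipr1, 4.49 ± 3.46 CPM (SD, n = 2), was at least 21.1-fold higher than 3 counts per control library. The count rate was 49.6-fold lower with minocycline than with light alone (counting interval 19.0 to 184), and minocycline and control were both at or under the limit of 3 counts.

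Procr, the endothelial protein C receptor, binds protein C on the vessel wall and aids its activation by thrombin and thrombomodulin. Located at chr2:155751117-155755471 on the plus strand, it had no count in either control, 11 and 27 counts after light, and 6 and 12 with minocycline. Its level was 0.643 and 1.28 CPM after light, and 0.261 and 0.636 CPM with minocycline. Minocycline B and light-exposed replicate 1 were almost equal, so that the groups were separated by a narrow margin, and they overlapped when scaled by DESeq2 size factors. The mean of Procr after light lay at least 4.53-fold above the level of 3 counts in control, and its mean with minocycline at least 2.11-fold above it. The count rate was 2.31-fold lower with minocycline than with light alone (counting interval 1.29 to 4.31), the smallest difference of the 9 genes.

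Tmem37 encodes a membrane protein related to the gamma subunits of voltage-gated calcium channels. It lies at chr1:120067377-120074074 on the minus strand and held 6 and 9 counts in the controls, 40 and 128 after light, and 20 and 19 with minocycline. In CPM, this was 0.427 and 0.634 in control, 2.34 and 6.08 after light, and 0.870 and 1.01 with minocycline. Like Anpep, it had its minocycline libraries between the other groups. The log2 fold change of Tmem37 was 2.98 after light (standard error 0.569).

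Of the enzymes, Hal had the largest summed count after light. Hal, histidine ammonia-lyase, takes the first step of histidine breakdown and makes urocanate. The gene lies at chr10:93488768-93519304 on the plus strand and held 1 and 0 counts in the controls, 66 and 282 after light, and 2 and 2 with minocycline. Its level was 0.0711 and 0 CPM in control, 3.86 and 13.4 CPM after light, and 0.0870 and 0.106 CPM with minocycline. Control and minocycline were both at or under the limit of 3 counts. The count rate of Hal was 258-fold higher after light than in control, with a wide counting interval of 45.9 to 10204.9 that rests on the 1 control count, and 95.4-fold lower with minocycline than with light alone (36.9 to 352).

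Ugt1a7c is a UDP-glucuronosyltransferase, an enzyme that makes lipophilic compounds soluble by adding glucuronic acid. Located at chr1:88095062-88220002 on the plus strand, it had 1 and 0 counts in control, 13 and 63 after light, and 1 and 0 with minocycline. These equal 0.0711 and 0 CPM, 0.759 and 2.99 CPM, and 0.0435 and 0 CPM. The count rate of Ugt1a7c was 56.3-fold higher after light than in control (counting interval 9.80 to 2251) and 83.3-fold lower with minocycline than with light alone (14.5 to 3332.9), both resting on 1 count in the lower group.

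Neurl3 encodes a ubiquitin ligase of the neuralized family. It lies at chr1:36264597-36274679 on the minus strand and held 4 and 12 counts in the controls, 40 and 99 after light, and 15 and 7 with minocycline. In CPM, this was 0.284 and 0.845 in control, 2.34 and 4.70 after light, and 0.653 and 0.371 with minocycline. Control and minocycline overlapped, and light lay above both. With Tmem37, Neurl3 was the gene that was least silent in control, and its log2 fold change after light, 2.63 (standard error 0.569), was the lowest among those with control counts.

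The annotation limits how surely some of these reads belong to their gene. Of the 50-base stretches in transcripts of Ugt1a7c, 69.3% occur also in 9 other genes, since the Ugt1a genes share their later exons, so the reads could have been split among them. The other Ugt1a genes of the table held 0 or 1 count in each library, except Ugt1a6a with 0 and 2 counts in control, 7 and 4 after light, and 3 and 4 with minocycline. Glipr1 shares 19% of its 50-base stretches with Krr1 on the opposite strand, and Htr2b shares 10% with Psmd1, also on the opposite strand. The use of the strand in counting is not given in the sources used here. Krr1 lay between 46.9 and 71.4 CPM over the 6 libraries and Psmd1 between 114 and 148 CPM, both lower in light-exposed replicate 2 than in any other library. Cd180 overlaps Mast4 on the opposite strand, with 182 shared bases of annotated exons. The longest coding transcript of Cd180 shares no stretch of 50 bases with another gene. Mast4 stood at 18.7 and 23.1 CPM after light against 11.2 and 16.4 CPM in control. Hal shares 1.02% and the remaining genes 0%. All these shares refer to the longest coding transcript of each gene.

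Levels of different genes can be set side by side only per length. Per kilobase of the transcript, the light-exposed mean was 4.43 CPM for Cd180, 3.79 for Glipr1, 3.21 for Tmem37, 2.97 for Anpep, 1.92 for Htr2b, 1.62 for Hal, 1.35 for Neurl3, 0.603 for Procr and 0.568 for Ugt1a7c. The replicates of a gene differed by 2.00-fold for Procr to 4.29-fold for Anpep. Because of this, neighbours in the order overlapped between libraries, apart from Neurl3 (0.899 and 1.81 CPM per kilobase) and Procr (0.402 and 0.803). Within each light-exposed library, Cd180 stood first, and Procr and Ugt1a7c took the last places. In control, Tmem37 stood first with 0.404 CPM per kilobase, followed by Neurl3 with 0.217.

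Light and minocycline were then compared with edgeR's quasi-likelihood test, in which the light-exposed libraries that chose the genes take part. All 9 genes lay lower in both minocycline libraries than in both light-exposed ones, beside 28.7% of all 14750 tested genes. With DESeq2 size factors in place of TMM, a scaling of the levels chosen after seeing the data, the groups overlapped for Procr and the number was 8. A log2 fold change of -2 or less was fitted for 8 of the 9, all but Procr, beside 2.52% of all tested genes. Without light-exposed replicate 2, 8 genes were tested and 6 reached it, with Tmem37 at -1.32 and Procr at -0.54. With Benjamini-Hochberg adjustment over all tested genes, 0 of the 9 had an adjusted p under 0.05. Lower with an unadjusted p under 0.05 were 8 of the 9, beside 12.1% of all tested genes. Over all genes, 0.0407% were lower with an adjusted p under 0.05, and 0.0339% also by a log2 fold change of 2 or more. In either direction, 3117 genes had an unadjusted p under 0.05. The median log2 fold change was -4.76 over the 9 genes and 0.00617 over all tested genes.

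The values for single genes in this comparison were as follows. Hal had a log2 fold change of -6.39 (standard error 0.861) and an adjusted p of 0.0691 in edgeR. Glipr1 had -5.47 (standard error 0.854, adjusted p 0.0698 in edgeR), and Neurl3 had -2.74 (standard error 0.525) with the same adjusted p. These 3 genes came nearest to the threshold. Htr2b and Ugt1a7c had log2 fold changes of -4.76 (standard error 0.898) and -5.98 (standard error 1.14), with an adjusted p of 0.0709 each in edgeR. For Cd180, Anpep and Tmem37, the log2 fold changes were -5.75, -4.18 and -2.15, and the adjusted p-values 0.0844, 0.0886 and 0.0940 in edgeR. Procr stood apart from these 8 genes in size, with -1.12 (standard error 0.612, adjusted p 0.349 in edgeR).

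The number of calls depended on the model. DESeq2 without shrinkage called 7 of the 9 genes lower with minocycline (all but Procr and Cd180), edgeR with all 6 libraries in the fit called 7 (all but Procr and Tmem37), and edgeR without a filter called 6. Over the whole table, these settings called 293, 218 and 209 genes lower, against 5 in the pairwise edgeR test. Without light-exposed replicate 1, 7 of the genes were called beside 406 in the table, and without light-exposed replicate 2 only Hal was called beside 24 in the table. Over all alternatives and left-out libraries, the smallest adjusted p among the 9 genes lay between 5.7e-09 and 0.205.

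**Figure D2:**
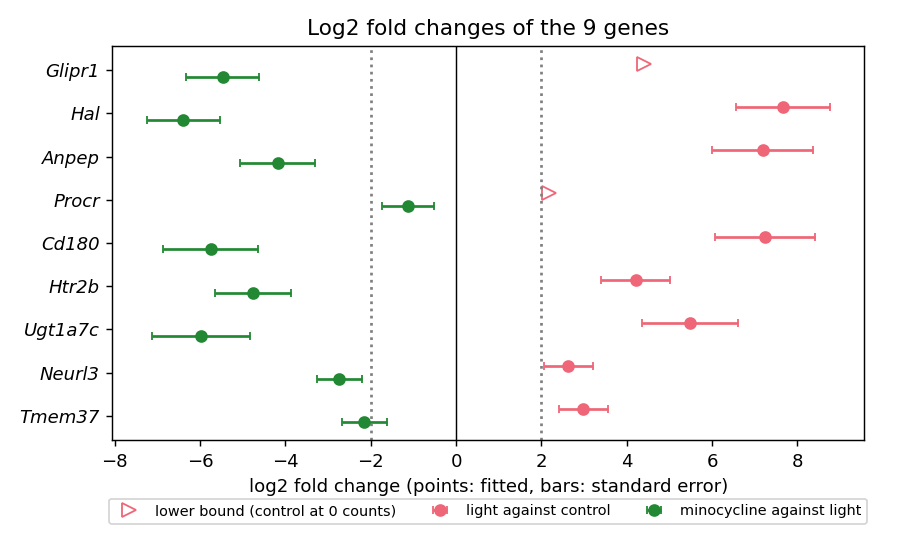
Log2 fold change (horizontal axis) of each gene after light against control (red) and with minocycline against light alone (green). Filled points are fitted values with standard errors, open triangles are lower bounds for the genes without any control count, and dotted lines mark a log2 fold change of 2 in either direction; Procr is the only gene whose green point lies inside these lines.

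For the light-exposed against control libraries, which the rule used, the fitted log2 fold change was at least 2 for all 9 genes, and its median was 7.03, or 4.40 with Glipr1 and Procr at their lower bounds. The same test gave a median of 0.00253 over all genes. Of all tested genes, 7.52% were higher and 3.8% lower with an adjusted p under 0.05, and 2.89% were higher with a log2 fold change of at least 2 as well. The 9 genes are among these by choice, and nothing is read from that. Fewer of the 9 passed both thresholds without a filter (7) and in some fits with a library left out. Since the rule chose the genes on these libraries, no such number is a result about them. Without light-exposed replicate 2, Procr and Ugt1a7c did not pass the filter on low counts, and the 7 genes tested all had a log2 fold change of at least 2.

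How near the genes came to control with minocycline was read from the levels. As a share of the light-exposed mean, the minocycline mean was 5.54% for Anpep, 14.5% for Neurl3, 22.3% for Tmem37 and 46.6% for Procr. The other 5 genes had 3 counts or fewer in at least 1 minocycline library. With such libraries set to 3 counts, the share was 1.68% for Hal, 2.34% for Cd180 and 3.23% for Glipr1. On the same footing it was 4.70% for Htr2b and 7.72% for Ugt1a7c. These shares are no upper limits, since a library with a count can stand for a level above 3 counts. The order of these 5 genes is not measured. For comparison, the control mean was 16.1% of the light-exposed mean for Neurl3, 12.6% for Tmem37 and 5.29% for Htr2b. The minocycline libraries of Neurl3 and Htr2b overlapped the controls, and Procr was the gene that kept the largest share, 27.1% in minocycline A and 66.1% in B. All shares depended on the light-exposed library they were set against. Against replicate 1 alone, they were 14.6% for Anpep, 21.9% for Neurl3, 40.2% for Tmem37 and 69.8% for Procr. Against replicate 2 alone, they were 3.42%, 10.9%, 15.4% and 35% for the same genes.

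Between minocycline and control libraries, 5 genes were higher without overlap (Glipr1, Hal, Anpep, Procr and Tmem37) and 4 overlapped (Cd180, Htr2b, Ugt1a7c and Neurl3), beside 15.9% of all 14181 tested genes that were higher without overlap. For Glipr1 and Hal, all libraries of both groups held 3 counts or fewer, and the same was true of Ugt1a7c. Only Neurl3 and Tmem37 passed the filter on low counts. Their log2 fold changes were -0.08 (standard error 0.636, adjusted p 0.974 in edgeR) and 0.85 (standard error 0.488, adjusted p 0.742 in edgeR). The value of Neurl3 had no stable sign, since it was 0.90 without control 2, 0.21 without minocycline B and -0.66 without control 1. Neither gene had an unadjusted p under 0.05, and 0 were called by DESeq2. Over all tested genes, 0.162% were higher with an adjusted p under 0.05, and 0.134% also by a log2 fold change of at least 2. For Cd180, the ratio of minocycline to control was 3.04, with a counting interval of 0.629 to 28.9 that leaves out variation between libraries.

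The markers of microglia and macrophages moved with the 9 genes. Their 12 members, among them Aif1, Csf1r, Cx3cr1, P2ry12 and Trem2, were all detected in every library. They summed to 55.6 and 62.0 CPM in control, 360 and 1142 CPM after light, and 103 and 53.0 CPM in minocycline A and B. Light-exposed replicate 2 exceeded replicate 1 by a median of 3.47-fold over the 9 genes and of 3.04-fold over these markers, beside 1.00-fold over 14713 genes. The part of these cells in the levels of the 9 genes was not tested, and the ratios that follow are descriptions.

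Relative to 1000 CPM of these markers, the 9 genes together stood at 21.7 and 29.5 CPM in control, 64.0 and 68.6 after light, and 29.2 and 58.9 in minocycline A and B. The replicates of the light-exposed group thus came close to each other on this scale. Cd180 went from 2.56 and 0 in control to 14.1 and 16.1 after light, and Hal from 1.28 and 0 to 10.7 and 11.7. Anpep went from 1.28 and 1.14 to 11.9 and 16, and Glipr1 from 0 to 5.68 and 6.07. On this scale, 3 counts correspond to 3.84 and 3.41 in the controls. Cd180, Hal, Anpep and Glipr1 lay above that limit in both light-exposed libraries, while the rule chose them for such a distance, so that this order is a description and no test. Procr, without a control count and at 1.79 and 1.12 after light, lay under the limit, and the groups cannot be ordered for it.

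Neurl3 and Tmem37 did not share this pattern. Per 1000 CPM of markers, Neurl3 stood at 5.12 and 13.6 in control and 6.50 and 4.11 after light, which overlap. Tmem37 stood at 7.67 and 10.2 in control and at 6.50 and 5.32 after light, so that light was the lower group. Htr2b, at 2.56 and 4.54 in control and 4.71 and 5.53 after light, lay higher after light by a narrow margin and rested in control on 6 counts. Ugt1a7c, at 1.28 and 0 in control and 2.11 and 2.62 after light, lay under the limit of 3 control counts, and its groups cannot be ordered either.

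With minocycline, the ratio to these markers separated the genes further. Glipr1, at 1.27 and 0.999, Hal, at 0.846 and 2.00, and Cd180, at 3.81 and 0, lay under their light-exposed values, as did Htr2b. This also held with the minocycline values set to 3 counts, at 1.27 in A and 3.0 in B, where they were lower than that. For a library with any count, 3 counts is no upper limit, and Htr2b held 1 count in B. For Ugt1a7c, with 1 and 0 counts, that limit in B lay above its light-exposed values, and no order can be given. Neurl3, at 6.35 and 6.99, overlapped light. Procr, at 2.54 in minocycline A and 12 in B, and Tmem37, at 8.46 and 19.0, lay above theirs. Anpep fell on either side of light, with 3.38 in A and 17.0 in B. Minocycline B had the larger ratio for Procr, Tmem37, Anpep and Neurl3 and for the 9 genes together, and its marker sum was the smaller of the pair. Hal also had the larger ratio in B, but held only 2 counts in either library.

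**Figure D3:**
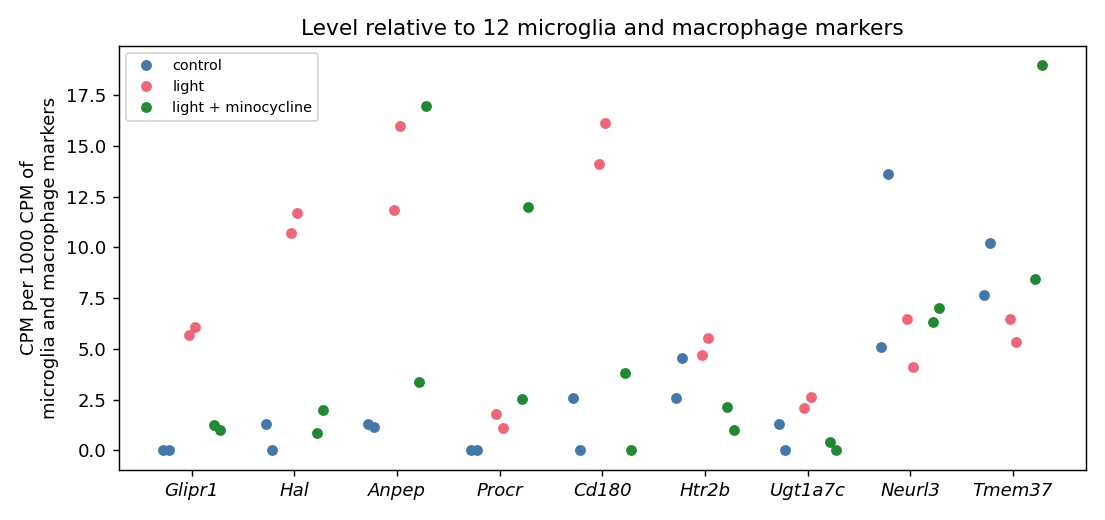
Level of each gene per 1000 CPM of 12 summed microglia and macrophage markers (vertical axis, linear) in each library, with control in blue, light-exposed in red and light-exposed plus minocycline in green. Light-exposed points lie above control and above the level of 3 control counts (3.84 and 3.41) for Glipr1, Hal, Anpep and Cd180, and by a narrow margin for Htr2b. Those of Procr and Ugt1a7c lie under that level, and the others overlap control for Neurl3, and lie below control for Tmem37, while Anpep, Procr and Tmem37 have their highest point in minocycline B.

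Markers of other cells were read in the same libraries. Those of monocytes and neutrophils, with 5 of 6 genes in the table, were higher after light, at 0.853 and 0.141 CPM in control, 1.75 and 2.18 CPM after light, and 1.31 and 1.80 CPM with minocycline. Those of B cells summed to 0.479 to 1.52 CPM, with Ms4a1 at 0 throughout. T cell markers summed to 0.142 and 0.141 CPM in control, 0.643 and 0.285 CPM after light, and 0.305 and 0 CPM with minocycline, with Cd3e at 0 throughout. Endothelial markers, of interest for Procr, summed to 151 and 125 CPM in control, 213 and 270 CPM after light, and 206 and 150 CPM with minocycline. Pericyte markers summed to 30.4 and 26.8 CPM in control, 38.1 and 41.4 CPM after light, and 40.4 and 35.5 CPM with minocycline. Those of Müller glia summed to 2202 and 1484 CPM, 2374 and 2615 CPM, and 2595 and 2015 CPM. The sums for monocytes and neutrophils, T cells, endothelium, pericytes and Müller glia were thus higher in both light-exposed libraries than in both controls, and their part in the levels of the 9 genes was not tested.

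Markers of tissue next to the retina were higher in the minocycline libraries than in the others. Those of corneal epithelium summed to 193 and 278 CPM in minocycline A and B and to 2.18 to 15.6 CPM in the other 4 libraries. Markers of pigment cells summed to 235 and 1068 CPM there, against 12.5 to 57.0 CPM in the other 4. Both marker sums were higher in B than in A. The ratio of B to A was 2.59 for Anpep, 2.43 for Procr, 1.16 for Tmem37 and 0.568 for Neurl3. The other 5 genes held 3 counts or fewer in A, in B or in both, and no ratio is read for them. Where these transcripts came from, and their part in the minocycline levels, was not tested.

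Partners of each gene were described from 9 lists of 122 genes, of which 120 stood in the table. In light against control, 75 were tested, and 15 were higher and 3 lower with an adjusted p under 0.05, so that 20% were higher beside 7.52% of all genes. The lists were chosen with earlier results of these data known, and the share is a description. In minocycline against light, 0 of 78 tested partners were higher and 1 was lower in edgeR, beside 9 and 18 with an unadjusted p under 0.05, which is 11.5% and 23.1% of them against 9.04% and 12.1% of all tested genes. In minocycline against control, 0 of 67 passed in either direction in edgeR, beside 12 higher and 2 lower with an unadjusted p under 0.05, which is 17.9% and 2.99% of them against 5.39% and 1.62% of all tested genes.

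The partners of Cd180, the receptor complexes of lipopolysaccharide and their adaptors, held 7 of the 15 partners that rose. Of 11 tested in this list, these 7 were higher after light, with a median log2 fold change of 3.04 over the list. The summed microglia and macrophage markers moved beside them, from 55.6 and 62.0 CPM to 360 and 1142 CPM, and their part in the levels of this list was not tested. Ly86, which encodes MD-1, the binding partner of Cd180, stood at 2.91 and 1.83 CPM in control, 10.6 and 28.2 CPM after light, and 3.18 and 1.70 CPM with minocycline. Its log2 fold change after light was 3.04 (adjusted p 0.0245 in edgeR). Tlr4, the receptor for lipopolysaccharide itself, rose from 0.355 and 0.352 CPM to 2.86 and 6.03 CPM, with a log2 fold change of 3.64 (adjusted p 0.00818 in edgeR). It stood at 1.35 and 2.38 CPM with minocycline, above both controls.

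The other 5 genes of this list that rose were the co-receptor Cd14, the adaptor Ticam2, the kinases Lyn and Btk, and the exchange factor Vav1. Their log2 fold changes were 2.40, 4.41, 3.71, 4.59 and 4.33, and their adjusted p-values in edgeR 0.0231, 0.0375, 0.0185, 0.0154 and 0.0247. Ly96, Myd88, Ticam1 and Tirap did not pass the test. With minocycline against light, the list had a median log2 fold change of -2.31, and 0 of its 11 genes had an adjusted p under 0.05 in edgeR. Btk, at -4.04 with an adjusted p of 0.0698 in edgeR, was the nearest.

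**Figure D4:**
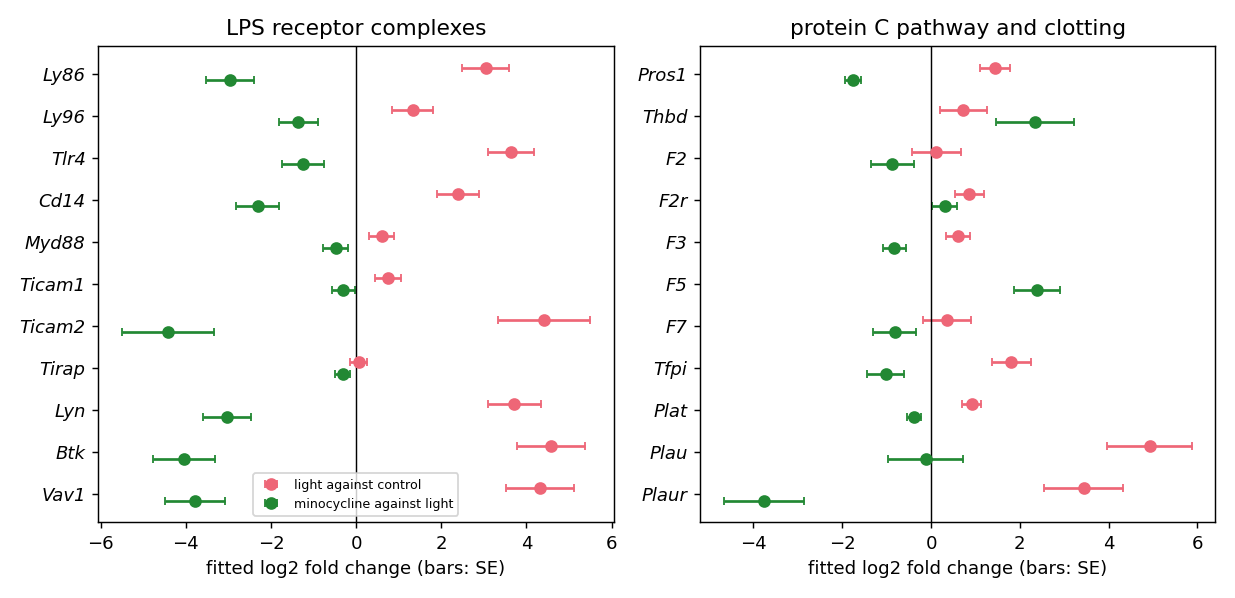
Fitted log2 fold change with standard error (horizontal axis) of the partners of Cd180 (left) and Procr (right) after light against control (red) and with minocycline against light alone (green). In the lipopolysaccharide list the red points lie at or above 0 and the green points below it, while in the list for protein C and clotting the green points of Thbd, F5 and F2r lie above 0, F5 having too few counts for a red point.

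Of the partners of Procr in the protein C pathway, clotting and fibrinolysis, 4 of 10 tested were higher after light. These were Pros1, the cofactor protein S, with a log2 fold change of 1.44 (adjusted p 0.0422 in edgeR), Tfpi, the inhibitor of tissue factor, with 1.80 (0.0278), the plasminogen activator Plat with 0.91 (0.0232), and the urokinase receptor Plaur with 3.44 (0.0465). Pros1 was the only partner of the 9 lists that passed the test in minocycline against light, with a log2 fold change of -1.75 (standard error 0.180, adjusted p 0.0444 in edgeR), from 40.4 and 52.8 CPM to 14.2 and 13.2 CPM. Thbd, thrombomodulin, stood at 0.782 and 1.06 CPM in control, 0.876 and 2.14 CPM after light, and 2.52 and 12.8 CPM in minocycline A and B, and passed the test in 0 of the 3 comparisons (smallest adjusted p 0.217 in edgeR). F5, clotting factor V, had the highest fitted value of this list in minocycline against light, a log2 fold change of 2.39 (standard error 0.529, adjusted p 0.0805 in edgeR), at 0.701 and 0.380 CPM after light and 1.96 and 3.60 CPM with minocycline. Plau, urokinase, had the highest fitted value of this list after light, a log2 fold change of 4.92 (adjusted p 0.0697 in edgeR). It stood at 17.5 and 46.9 CPM after light and 9.18 and 49.2 CPM in minocycline A and B. Like Procr, Thbd and Plau were higher in minocycline B than in A, and B held the larger sum of pigment cell markers. Summed markers of microglia and macrophages and of endothelium were also higher after light, and their part in the levels of this list was not tested.

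Partners of Hal moved in both directions. Hdc, which turns histidine into histamine, stood at 6.54 and 5.99 CPM in control and 2.57 and 1.99 CPM after light, and its log2 fold change was -1.45 (adjusted p 0.0246 in edgeR). With minocycline it stood at 5.88 and 6.15 CPM, near the controls, with an adjusted p of 0.0844 in edgeR against light. Aldh1b1, an aldehyde dehydrogenase, and Cndp2, a dipeptidase, were higher after light with log2 fold changes of 2.18 and 0.61 (adjusted p 0.0400 and 0.0479 in edgeR). Among the enzymes listed for Hal, Uroc1, Amdhd1 and Ftcd held at most 1, 3 and 4 counts in a library.

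The partners of the other genes changed in fewer cases. In the CAP family of Glipr1, Glipr2 was higher after light with a log2 fold change of 2.49 (adjusted p 0.00985 in edgeR), 1 of 4 tested, at 0.995 and 1.27 CPM in control, 5.14 and 7.55 CPM after light, and 1.39 and 1.38 CPM with minocycline. Among the membrane peptidases and the angiotensin genes listed for Anpep, Erap1 was higher with 1.00 (adjusted p 0.0180 in edgeR) and the angiotensin receptor Agtr1a lower with -1.77 (0.0469), of 10 tested. Of the serotonin system, 0 of 12 tested genes passed the test in light against control, and Maoa, which degrades serotonin, had a log2 fold change of 0.75 with an adjusted p of 0.0703 in edgeR. For the neuralized and Notch genes listed for Neurl3, only the ligand Jag1 passed, with -0.62 (adjusted p 0.0415 in edgeR), of 13. The lists for Ugt1a7c and Tmem37 had 0 of 4 and 0 of 6 tested genes past the threshold in edgeR.

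The choice of the 9 genes fixes that they rise together after light, so their likeness to each other is only described. The Pearson r of log2 CPM with the mean of the 9 genes, to which each contributes, was lowest for Procr at 0.806 and next for Neurl3 at 0.938, and highest for Glipr1 at 0.999. Among genes outside the set, P2ry13, an ADP receptor of microglia, had the highest r at 0.999, followed by Abcb1b, Slc11a1, Myo1f and Cmtm7 at 0.997 to 0.998. P2ry13 stood at 0.142 and 0.141 CPM in control, 2.86 and 10.5 CPM after light, and 0.392 and 0.318 CPM with minocycline. An r above 0.95 was found for 608 of 14713 genes and above 0.99 for 52, over only 6 libraries that fall into 3 groups.

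In position, 4 of the 9 genes lie on chromosome 1 (Htr2b, Ugt1a7c, Neurl3 and Tmem37), which holds 5.57% of the 21764 genes of the table with a position, and Glipr1 and Hal lie on chromosome 10 with 4.66%. All 9 are annotated as coding for protein.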

How the data were processed

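Retinal RNA was measured in 6 libraries. Per the labels and the study's methods, the authors prepared stranded poly-A libraries, aligned reads to mm10 (GRCm38) with STAR and used DESeq2; tool versions, gene annotation and the use of the strand are not given in the sources used here. The deposited values were used as raw counts of 23420 genes, 4791 of them at 0 throughout. The study calls them normalized, but they are whole numbers, and DESeq2 size factors computed from them ran from 0.800 to 1.29, where normalized values would give factors close to 1. If they had been scaled, count intervals, limits and tests would not hold as given; 0 value columns were unused. Alignment and counting could not be varied.

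The groups were fitted in pairs in R 4.3.3 by the robust quasi-likelihood F test of edgeR 4.0.16, after filterByExpr and TMM scaling, and p-values were adjusted over all tested genes by Benjamini-Hochberg. Genes were called at an adjusted p below 0.05 together with a log2 fold change whose size reached 2. Log2 CPM used a prior count of 2, and 3 counts per library were the limit of detection. Ratios of summed counts carry exact 95% intervals for counting error. Scripts were tested on simulated data. Coordinates, overlaps and transcript lengths came from GENCODE vM21, promoters from RefSeq.

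The 9 genes and all lists were chosen with earlier results of these data known. Besides the 9, the genes named are partners past the threshold, 5 direct partners (Ly86, Tlr4, Thbd, Hdc, Maoa), overlapping genes and the 5 genes most alike; F5, further partners and Ugt1a6a were named after their values were seen. Of the partners, 1 is not reported here and is left out of all partner counts. Replicate numbers did not pair control and light-exposed libraries (r of replicate differences -0.01 over genes). Alternatives were DESeq2 1.42.0, other scalings, filters and fits, a prior count of 0.5, the replicate block and each library left out.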

Additional observations from a re-analysis of the deposited data

How the results depend on the processing

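For light against control, every tested gene of the 9 kept a log2 fold change of at least 2. With at least 10 counts in every library 0 were tested, and with libraries left out in turn 7 to 9 were tested and reached it, 7 without light-exposed replicate 2. The replicate block gave 9 genes as well, with a median of 7.01, and the numbers did not pair the samples. The median of 7.03 was 5.76 to 7.41 with libraries left out. Taken as a difference of mean log2 CPM with a prior count of 0.5, another measure than the fit, it was 5.08. The 415 genes called higher over the table became 144 with at least 10 counts in every library and 3 to 738 with libraries left out.

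For minocycline against light, 0 of the 9 genes were called, but 7 with DESeq2, 6 without a filter, 7 with all 6 libraries in one fit and 0 to 7 with libraries left out. The median of -4.76 was -2.17 with at least 10 counts, where 1 gene was tested, and -6.05 to -3.16 with libraries left out. The 5 genes called lower over the table became 293 with DESeq2, 9 without robust estimation, 2 with DESeq2 size factors, 0 with total library size (3452 had an unadjusted p under 0.05), 209 without a filter, 218 with all 6 libraries, and 4 to 406 with libraries left out. No fold change of the 9 genes was reversed.

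For minocycline against control, 0 of the genes were called in the main fit, where 2 were tested, so that no median is given. The other fits that used both libraries of each group called 0 as well. Of these, the fits without a filter and with all 6 libraries tested 9 genes. With at least 10 counts in every library 0 were tested, and no call was possible. The log2 fold change of Neurl3 lay between -0.66 and 0.90 with libraries left out. The 19 genes called higher over the table became 100 with DESeq2, 96 without a filter, 2 with at least 10 counts, 0 with all 6 libraries and 3 to 276 with libraries left out. No paired analysis was possible because the minocycline columns carry no number of their own. CPM with total library size differed by a factor of 0.925 to 1.12. With 3 counts or fewer, a control level is limited by depth. Causes of these differences were not tested.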
